A study of Mus musculus with 6 samples.

Results

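Ligands of the tumour necrosis factor (TNF) superfamily were described in naive CD8 T cells that differed in the brightness of a Nur77-GFP reporter. The set was chosen by gene symbol and comprised Cd40lg, Tnfsf8, Tnf, Lta, Ltb, Tnfsf10, Tnfsf11, Tnfsf12 and Tnfsf14. Of these 9 genes, 7 were found among the 11162 genes of the table, and Tnfsf12 and Tnfsf14 were not analysed here. The set was proposed when it was already known that Cd40lg and Tnfsf8 differed between the populations. Differences of the 7 ligands between GFP-hi and GFP-lo cells are therefore given as a description. Where the fit over all genes called a ligand, the call is stated for completeness and supports nothing.

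The cells came from the spleen of mice of the genotype Nur77-GFP (Tg(Nr4a1-EGFP)GY139Gsat), in which green fluorescent protein is made from Nr4a1 regulatory sequences as a reporter of T-cell receptor signalling. Both groups were sorted as CD8+ CD44lo CD62Lhi Qa2hi cells, and the sort label also names OT-I, a T-cell receptor transgene specific for an ovalbumin peptide. They were then divided by the reporter into GFP-hi cells (3 libraries) and GFP-lo cells (3 libraries). Treatment, age and the number of animals were not given in the sources used here, so p-values measure the spread between these libraries, which may be technical. RNA was measured by sequencing, and levels are in RPKM, read numbers divided by gene length and by library depth. Library numbers were given in record order and serve as names. The labels do not say whether GFP-hi and GFP-lo libraries were paired, and no pairing was used.

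TNF superfamily ligands are membrane or secreted proteins that assemble as trimers and bind receptors of the TNF receptor superfamily on other cells or on the same cell. T cells use them to instruct B cells, dendritic cells and stromal cells, to build lymphoid tissue and to kill target cells. Several of them, Cd40lg and Tnf among them, are induced by T-cell receptor signals, and some are cut from the cell surface by proteases.

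Sequence around these genes was taken from RefSeq promoters and GENCODE transcripts of GRCm38, the build that corresponds to mm10. Of the 7 ligands, 6 had an entry in the promoter table and Cd40lg had none. The table counts from the start of 1 transcript, which is the outer 5′ end of the gene in 4 ligands. For Tnfsf8 and Lta it lies 224 and 227 bases inside the gene bounds given here, so most of the bases before it fall within those bounds. The 250 bases before the start of Tnfsf11 (chr14:78308044-78308293, minus strand) are shown because this ligand had the widest ratio between the groups. The 30 bases around the GGAAA match that starts 100 bases before this inner start of Tnfsf8 (chr4:63861367-63861396, minus strand, inside the gene bounds) are shown because Tnfsf8 lay lower in GFP-hi cells. Capitals mark matches to GGAAA, the core bound by NFAT factors, and to TATAAA, the TATA box, on either strand.
Tnfsf11 upstream: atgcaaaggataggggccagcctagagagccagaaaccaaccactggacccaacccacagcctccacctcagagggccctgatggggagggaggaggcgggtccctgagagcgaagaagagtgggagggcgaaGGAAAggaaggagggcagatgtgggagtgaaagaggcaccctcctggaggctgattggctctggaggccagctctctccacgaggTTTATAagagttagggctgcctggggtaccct
Tnfsf8 site: gctgagcctaaaGGAAAcagaagtggttgg
The motif GGAAA was present in the 250 bases before the table's start in each of the 6 ligands with an entry, as in 55.6% of all 32851 promoter windows. TATAAA was present in Tnfsf11, Tnf and Lta, and in 12.4% of all windows. A match describes these letters and is not a bound site.

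The 3 genes Ltb, Tnf and Lta lie beside each other within 11072 bases of chromosome 17, in the class III region of the major histocompatibility complex. Their 3′ untranslated regions were searched for ATTTA, the core of AU-rich elements that shorten the life of cytokine messages, and for the longer form TTATTTATT. Tnf held 8 copies of ATTTA in 764 bases, or 10.5 per kilobase, against a median of 1.35 per kilobase over 10628 genes of the table. Cd40lg held 2 copies in 455 bases, Lta 3 in 572, Tnfsf11 6 in 1131, Tnfsf8 10 in 2799, Tnfsf10 8 in 3998 and Ltb none in 156. The longer form occurred 5 times in Tnf, overlaps included, and 1 time in Lta, and in none of the other 5 ligands. It was present in 8.39% of the 10628 genes, and in 4.62% and 3.5% of genes whose 3′ untranslated region was within 1.25 times the length of that of Tnf and of Lta. The 30 bases that hold it in Tnf (chr17:35199679-35199708, minus strand) and in Lta (chr17:35203395-35203424, minus strand) are shown with ATTTA in capitals.
Tnf element: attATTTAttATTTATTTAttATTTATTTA
Lta element: aaaagttaagttATTTATTTAtagagaata

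The depth of the libraries, recovered from the step that 1 read makes in low RPKM values, was 26170000 to 35940000 reads. Markers of the sorted cells were high in both groups, with all 8 genes listed at mean levels from 96.6 RPKM to 812 RPKM (Cd8b1). The heat-shock genes Hspa1a and Hspa1b stood apart in library 2 of each group, at 1100 and 1904 RPKM in GFP-hi 2 and 1234 and 2133 RPKM in GFP-lo 2, against at most 235 and 503 RPKM in the other 4 libraries. Across all genes, 369 of 9351 tested differed at an adjusted p under 0.05 (limma, Benjamini-Hochberg), with 230 higher and 139 lower in GFP-hi cells.

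Levels per kilobase spanned a wide range in these cells. Ltb was the most abundant ligand, with a mean of 164 ± 14.6 RPKM (SD over 6 libraries), and its level exceeded that of Cd40lg in 6 of 6 libraries. Cd40lg followed with 28.8 ± 12.9 RPKM and was above Tnfsf8 (13.6 ± 5.34 RPKM) in 6 of 6 libraries. Tnfsf8 and Lta (11.2 ± 1.15 RPKM) changed places with the group, since Tnfsf8 was above Lta in 3 of 3 GFP-lo libraries and in 0 of 3 GFP-hi libraries. Lta was above Tnfsf10 in 6 of 6 libraries. Tnfsf10 (4.77 ± 0.773 RPKM) was above Tnf (4.09 ± 1.35 RPKM) in 4 of 6 libraries, 2 of each group. It was below Tnf in library 2 of each group, so the order of these neighbours was not the same in all libraries. Tnfsf11 was the lowest, at 0.832 ± 0.8 RPKM, a mean that hides a wide gap between the populations.

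**Figure D1:**
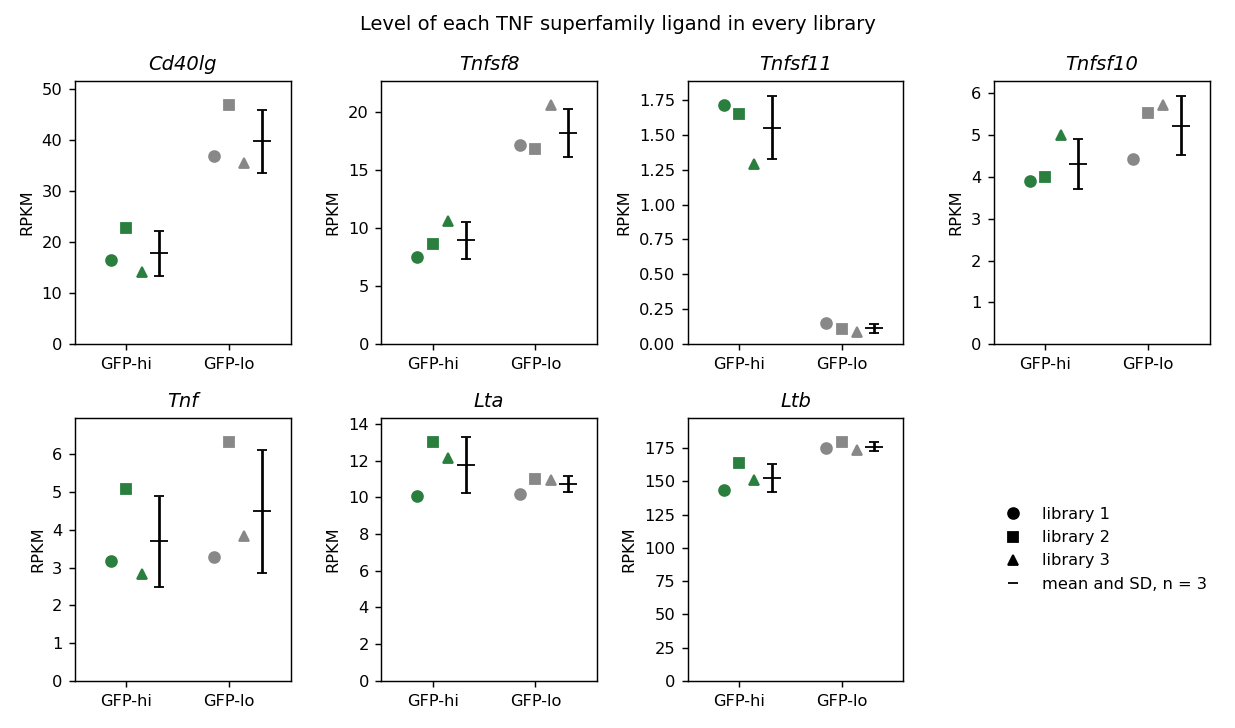
RPKM (vertical axis, from 0) of the 7 ligands in each of the 6 libraries. The mean and SD of each group of 3 stand beside the points. Symbols name the libraries, and the labels do not say whether GFP-hi and GFP-lo libraries were paired. Cd40lg, Tnfsf8 and Ltb lie lower in all GFP-hi libraries than in any GFP-lo library, Tnfsf11 lies higher, and the groups overlap for Tnfsf10, Tnf and Lta.

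Cd40lg and Tnfsf8 were lower, and Tnfsf11 was higher, in every GFP-hi library than in any GFP-lo library. Mean Cd40lg was 2.23 times and mean Tnfsf8 2.04 times as high in GFP-lo as in GFP-hi cells, whereas mean Tnfsf11 was 13.5 times as high in GFP-hi as in GFP-lo cells. Of the other ligands, Ltb lay somewhat lower in GFP-hi cells without overlap, and Tnfsf10, Tnf and Lta overlapped. Of the 6 ligands that passed the filter of a mean of at least 1 RPKM, 2 had an adjusted p under 0.05 (limma), Cd40lg and Tnfsf8, both lower in GFP-hi cells. That count stands beside 3.95% of all genes tested that passed in either direction, 1.49% that were lower and 2.46% that were higher, and nothing is read from it because the set was chosen with this contrast known. Groups did not overlap for 3 of these 6 ligands, all lower in GFP-hi cells, and for 26.9% of all genes tested (9.84% lower in GFP-hi cells). The median log2 fold change of the 6 ligands was -0.22, and that of all genes tested was 0.02.

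CD40 ligand (CD154), the product of Cd40lg, is the signal by which activated T cells license dendritic cells and help B cells through the receptor CD40. The gene (Entrez 21947; chrX:57212143-57224042, plus strand, 5 exons) had 16.5, 22.7 and 14.2 RPKM in the GFP-hi libraries and 36.9, 46.8 and 35.4 RPKM in the GFP-lo libraries. The highest GFP-hi library remained below the lowest GFP-lo library. Means were 17.8 ± 4.41 and 39.7 ± 6.20 RPKM (SD, n = 3 each), and the log2 fold change was -1.13 ± 0.166 (SE). Here and below, fold changes are GFP-hi over GFP-lo on the log2(RPKM + 1) scale, which understates the change of low genes. In RNA from sorted populations, fewer cells with a transcript and less transcript per cell cannot be told apart. Library 2 had the highest Cd40lg within each group, and it was also the library with high heat-shock genes. Without both of these libraries the log2 fold change was -1.19.

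Tnfsf8 encodes CD30 ligand (CD153), which binds the receptor CD30 on activated lymphocytes. The gene (Entrez 21949; chr4:63831202-63861508, minus strand, 4 exons) had 7.52, 8.68 and 10.6 RPKM in the GFP-hi libraries and 17.2, 16.8 and 20.6 RPKM in the GFP-lo libraries. The groups were again separate, and library 3 was the highest of each group. Means were 8.95 ± 1.58 and 18.2 ± 2.08 RPKM (SD, n = 3 each), and the log2 fold change was -0.96 ± 0.121 (SE). Among the 4 libraries without library 2 of either group the log2 fold change was -0.995, and Tnfsf8 was no longer past the threshold, which left Cd40lg as the 1 ligand called. Of all 9351 genes in that fit, 52 were called as higher and 49 as lower. For Tnfsf8 the depth behind the values was 815, 1122 and 1193 reads in GFP-hi and 2355, 1822 and 2055 reads in GFP-lo libraries. For Cd40lg it was 588, 965 and 523 against 1660, 1664 and 1159 reads. The spread within groups thus had a different order for these ligands, since Cd40lg was highest in library 2 and Tnfsf8 in library 3.

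Tnfsf11 encodes RANK ligand, which drives the formation of osteoclasts and of lymph nodes through the receptor RANK (Tnfrsf11a) and is bound by the decoy receptor osteoprotegerin (Tnfrsf11b). The gene (Entrez 21943; chr14:78277446-78308043, minus strand, 5 exons) had 1.71, 1.65 and 1.29 RPKM in the GFP-hi libraries and 0.149, 0.11 and 0.085 RPKM in the GFP-lo libraries. The recovered reads were 109, 125 and 85 against 12, 7 and 5, so the GFP-lo values rested on few reads. With exact 95% Poisson intervals, which cover counting error only, the lowest GFP-hi library spanned 67.9 to 105 reads and the highest GFP-lo library 6.2 to 21 reads. These reads include PCR copies and are not scaled for depth, so the intervals are no test of the groups. Means were 1.55 ± 0.227 and 0.115 ± 0.0323 RPKM (SD, n = 3 each). With a mean of 0.832 RPKM over the 6 libraries, Tnfsf11 did not pass the filter on low values and was not among the genes tested. In a fit with no filter the log2 fold change of this gene was 1.19 ± 0.0934 (SE), and Tnfsf11 was called there beside Cd40lg and Tnfsf8, for 3 ligands. Of all 11162 genes in that fit, 249 were called as higher and 132 as lower, and nothing is read from the count of ligands. The log2 fold change of Tnfsf11 depended on the pseudocount added before the logarithm, being 1.73 with 0.5 and 2.94 with 0.1. It ranged from 1.14 to 1.27 when 1 library was left out.

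Tnfsf10 encodes TRAIL, a ligand that triggers apoptosis through death receptors. The gene (Entrez 22035; chr3:27317077-27339665, plus strand, 5 exons) had 3.91, 4.01 and 4.99 RPKM in the GFP-hi libraries against 4.43, 5.54 and 5.72 RPKM in the GFP-lo libraries. One GFP-hi library lay within the GFP-lo range, and the log2 fold change was -0.23 ± 0.109 (SE; 95% interval from -0.48 to 0.02).

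The 3 linked genes on chromosome 17 were each compared in the same way. Tnf (Entrez 21926; chr17:35199367-35202007, minus strand, 4 exons), the inflammatory cytokine that gives the family its name, had 3.17, 5.08 and 2.84 RPKM in the GFP-hi libraries against 3.29, 6.33 and 3.84 RPKM in the GFP-lo libraries. The spread within each group was larger than the difference between the means, and the log2 fold change was -0.21 ± 0.226 (SE; 95% interval from -0.74 to 0.31). Its sign changed when GFP-lo library 2 was left out (0.01). Without library 2 of either group the log2 fold change of Tnf was -0.19 ± 0.0958 (SE). Library 2 held 137.3% of the group mean of Tnf in GFP-hi cells and 141.1% in GFP-lo cells, and it also held 164.3% and 160.5% of the group mean of the immediate early gene Egr1. All 10 genes of a list of early genes raised by cell handling were listed. The list holds immediate early genes such as Egr1, so it is not specific to handling. Their sum was 2544 to 6342 RPKM in the GFP-hi libraries and 3416 to 7194 RPKM in the GFP-lo libraries, the highest in library 2 of each group. Without library 2 the sums were 2544 and 2640 RPKM in the GFP-hi libraries against 3416 and 3417 RPKM in the GFP-lo libraries. Of these 10 genes, 9 had a negative log2 fold change, against 4164 of all 9351 genes tested, and the median of the 10 was -0.30. Cd40lg, Tnfsf8, Ltb, Tnfsf10 and Tnf had the same direction, and Lta and Tnfsf11 had the other. None of the 10 genes had an adjusted p under 0.05 (limma). Junb was the one without overlap, at 623 ± 111 against 858 ± 74.7 RPKM (SD, n = 3 each; log2 fold change -0.47, limma adjusted p = 0.080). The part of these genes in the spread of Tnf and in the levels of the other ligands was not tested.

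Lta encodes lymphotoxin alpha, which is secreted alone or joined to lymphotoxin beta at the membrane. The gene (Entrez 16992; chr17:35203165-35205578, minus strand, 4 exons) had 10.1, 13.0 and 12.1 RPKM in the GFP-hi libraries against 10.2, 11.0 and 11.0 RPKM in the GFP-lo libraries. The groups overlapped, and the log2 fold change was 0.11 ± 0.0901 (SE; 95% interval from -0.10 to 0.32). Ltb encodes lymphotoxin beta, the partner that anchors lymphotoxin alpha to the membrane for binding to the lymphotoxin beta receptor. The gene (Entrez 16994; chr17:35194507-35196305, plus strand, 3 exons) had 143, 164 and 151 RPKM in the GFP-hi libraries against 175, 180 and 174 RPKM in the GFP-lo libraries. All GFP-hi values were below all GFP-lo values, by a log2 fold change of -0.21 ± 0.0624 (SE). Ltb exceeded Lta by 12.4 to 14.2 times in GFP-hi and by 15.8 to 17.2 times in GFP-lo libraries. This ratio, made from the levels above, did not overlap between the groups. The ratios of Ltb to Tnf, of Lta to Tnf and of Cd40lg to Tnfsf8 overlapped. Of 7 neighbouring genes fixed as a list, 5 were listed and 4 tested (Nfkbil1, Ddx39b, Prrc2a and Bag6), and none had an adjusted p under 0.05, with log2 fold changes from -0.20 to 0.06.

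**Figure D2:**
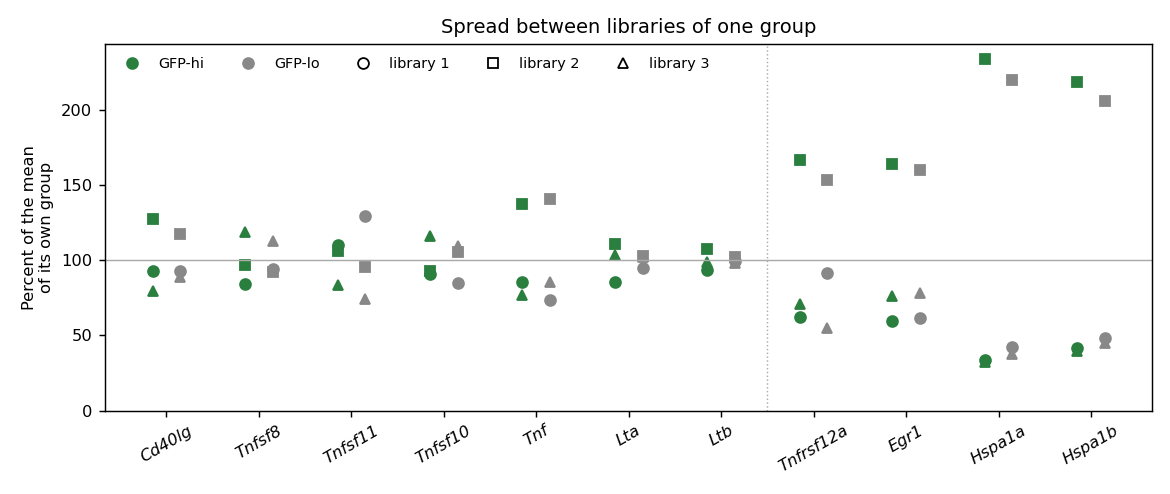
Level of each ligand in each library as a percentage of the mean of its own group (vertical axis, from 0), with Tnfrsf12a, Egr1, Hspa1a and Hspa1b to the right of the dotted line. Library 2 of both groups is high for Tnf (137.3% and 141.1%) and for the genes at the right, whereas Ltb stays between 93.8% and 107.3% in all libraries.

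**Figure D3:**
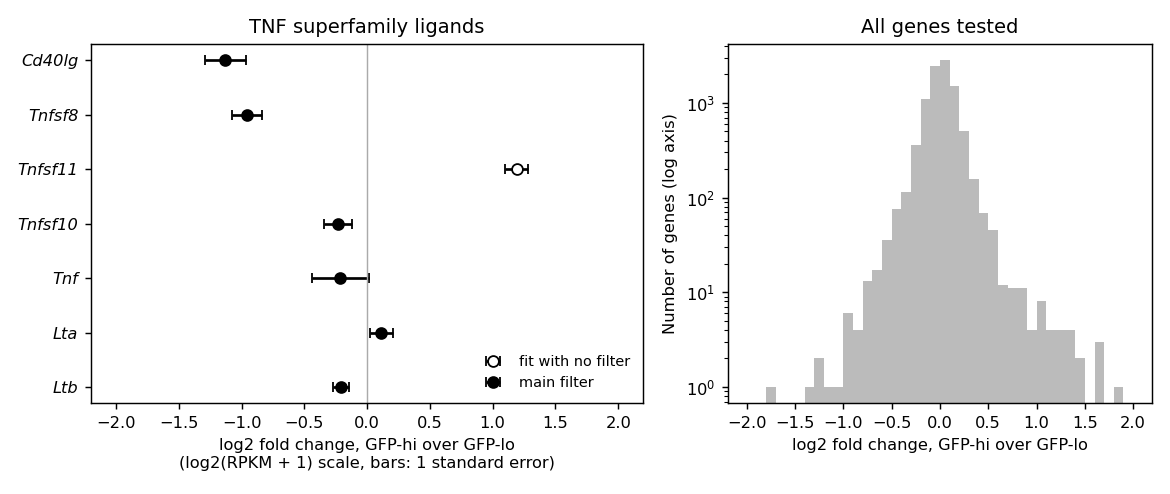
Left, log2 fold change (horizontal axis, GFP-hi over GFP-lo, bars are 1 standard error) of the 7 ligands, with Tnfsf11 from the fit with no filter as an open symbol. Right, the number of genes (log axis) at each log2 fold change among all 9351 genes tested, most of which lie near 0. Cd40lg (-1.13) and Tnfsf8 (-0.96) lie in the lower tail. Tnfsf11 (1.19 with no filter) is not among the genes at the right.

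The genes whose level followed the ligands most closely over the 6 libraries were found by Pearson's r of log2(RPKM + 1), given as a description over points that fall in the 2 groups and share their libraries. For Cd40lg these were Slc49a4 (r = 0.991), Sgms1 (0.991), Tmub1 (0.991), Bbs9 (0.986) and Acpp (0.985). For Tnfsf8 they were Shisa5 (r = 0.9995), Slc28a2b (0.9989), Apobec3 (0.995), Cxcr3 (0.995) and Ppm1j (0.994). Cxcr3, a chemokine receptor of effector and memory T cells, had 8.87, 9.12 and 12.6 RPKM in the GFP-hi libraries against 23.5, 22.3 and 31.4 RPKM in the GFP-lo libraries, with library 3 the highest of each group as for Tnfsf8. Slc49a4, whose product belongs to a family of membrane transporters, had 10.5, 12.6 and 10.5 RPKM against 14.9, 16.4 and 15.3 RPKM, with library 2 the highest of each group as for Cd40lg.

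Receptors are the proteins through which these ligands act. Of 12 receptors of the 9 ligands of the set, Tnfsf12 and Tnfsf14 included, 7 were listed and 6 tested. None had an adjusted p under 0.05 (limma). Their median log2 fold change was -0.11, and single values ran from -0.38 (Tnfrsf12a) to 0.09 (Tnfrsf1a). Tnfrsf12a overlapped between the groups, with an SE of 0.341. Its level in library 2 was 166.9% of the group mean in GFP-hi and 153.3% in GFP-lo cells. The TNF receptors Tnfrsf1b and Tnfrsf1a had 21.4 ± 1.15 and 9.80 ± 0.344 RPKM in GFP-hi cells, against 22.5 ± 0.359 and 9.17 ± 0.312 RPKM in GFP-lo cells (n = 3 each, SD). Tnfrsf22, a decoy receptor for TRAIL, was 8.31 ± 0.285 against 10.3 ± 0.852 RPKM (log2 fold change -0.28, limma adjusted p = 0.072). Tnfrsf10b, the TRAIL death receptor, had 0.724 ± 0.0844 against 0.996 ± 0.0902 RPKM and did not pass the filter. Cd40, Tnfrsf8, Tnfrsf11a and Tnfrsf11b, receptors of Cd40lg, Tnfsf8 and Tnfsf11, and Ltbr, the lymphotoxin beta receptor, were not analysed here.

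Among 10 tested receptors of other ligands, 2 rose and none fell, with a median log2 fold change of 0.08. Tnfrsf9 (4-1BB), a costimulatory receptor, had the largest value (log2 fold change 1.83 ± 0.0892, SE, with a limma adjusted p of 9.7e-05). Tnfrsf13b (TACI), a receptor of the B-cell survival factors BAFF and APRIL, had 10.8, 11.5 and 11.1 RPKM in the GFP-hi libraries against 7.82, 7.45 and 6.81 RPKM in the GFP-lo libraries. This is a log2 fold change of 0.53 ± 0.0638 (SE), with a limma adjusted p of 0.0047. Among the 4 libraries without library 2 of either group the log2 fold change was 0.52 and the limma adjusted p 0.056, which ends the call. The costimulatory receptors Cd27 (-0.02) and Tnfrsf18 (0.03) had log2 fold changes near 0, with 95% intervals from -0.15 to 0.11 and from -0.15 to 0.21. None of the 9 other ligands on a list of the family, Fasl and Cd70 among them, was analysed here.

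Of 30 adaptors, kinases and ubiquitin ligases that act behind TNF receptors, all were tested, 1 fell and none rose. The median log2 fold change was -0.06, and 26 of the 30 had a negative value, against 4164 of all 9351 genes tested. That number was 18 without GFP-lo library 1. Traf5, an adaptor of several TNF receptors in T cells, had 10.1, 10.3 and 9.43 RPKM in the GFP-hi libraries against 16.5, 12.7 and 13.1 RPKM in the GFP-lo libraries, or -0.46 ± 0.0948 (SE) on the log2 scale, with a limma adjusted p of 0.038. It no longer passed when any library other than GFP-lo library 1 was left out and in the 4 libraries without library 2, with limma adjusted p values up to 0.12. Traf1 had a log2 fold change of -0.25 and a limma adjusted p of 0.057.

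Genes for shedding of the ligands and for RNA-binding proteins that act on cytokine messages did not pass the test in the main fit. Of 7 tested genes for shedding, which include the proteases Adam17 and Adam10 and the partner Rhbdf2 (iRhom2), none had an adjusted p under 0.05 (limma), with log2 fold changes from -0.14 to 0.13. Of 11 RNA-binding proteins of cytokine messages, none passed either, with log2 fold changes from -0.24 (Zc3h12a) to 0.25 (Tia1). Tia1 lay higher in all GFP-hi libraries (limma adjusted p = 0.054). In the fits without the trend and with array quality weights, 1 gene of this list was called as higher. Those fits called 241 and 783 of all 9351 genes as higher. Zfp36 (tristetraprolin), which binds AU-rich elements such as that shown for Tnf, had 224 ± 36.2 RPKM (GFP-hi) against 253 ± 24.9 RPKM (GFP-lo; SD, n = 3 each; log2 fold change -0.18, limma adjusted p = 0.45).

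Of 14 tested transcription factors of T-cell cytokine and ligand genes, 1 fell and none rose, with a median log2 fold change of -0.12. Akna, an AT-hook protein described as a regulator of Cd40lg, had 145 ± 6.58 RPKM (GFP-hi) against 176 ± 8.15 RPKM (GFP-lo; SD, n = 3 each). The log2 fold change of -0.27 ± 0.060 (SE) had a limma adjusted p of 0.048, and it no longer passed when any 1 of the 6 libraries was left out and in 5 other fits, with adjusted p values up to 0.15. Nfkb2 (-0.29), Rela (-0.22) and Nfatc2 (-0.22) had limma adjusted p values of 0.057, 0.065 and 0.24. Nfatc1 had a log2 fold change of 0.03 with a 95% interval from -0.19 to 0.24.

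**Figure D4:**
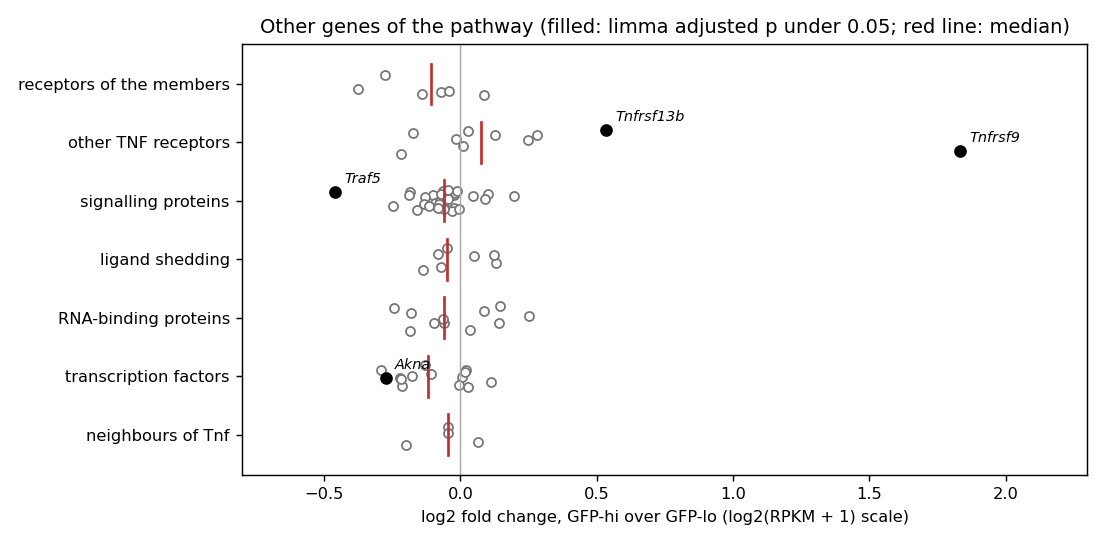
Log2 fold change (horizontal axis, GFP-hi over GFP-lo) of each tested gene of 7 lists, with filled symbols for a limma adjusted p under 0.05 and a red line at the median of each list. Tnfrsf9 and Tnfrsf13b lie to the right and Traf5 and Akna to the left, and the medians lie between -0.12 and 0.08.

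Markers of other cells were read beside these results because CD40 ligand is best known from CD4 T cells and platelets. Of 5 CD4 T cell markers 1 was listed, Izumo1r (log2 fold change 1.17, limma adjusted p = 0.00087). It had 2.999 to 3.715 RPKM in the GFP-hi libraries against 0.822 to 1.117 RPKM in the GFP-lo libraries. From this 1 gene the share of CD4 T cells cannot be told. Cd4, Zbtb7b, Foxp3, Il2ra and all 4 platelet and 3 natural killer cell markers were not analysed here. Of 6 B cell markers 2 were listed, Cd79b and Ms4a1. Their sum was 12.5 to 14.2 RPKM in the GFP-hi libraries against 10.9 to 11.3 RPKM in the GFP-lo libraries, most of it from Cd79b. Mean Cd79b was 13.15 against 10.76 RPKM without overlap (log2 fold change 0.26, limma adjusted p = 0.075). Mean Ms4a1 was 0.362 against 0.355 RPKM, and its groups overlapped. Of 5 myeloid markers 1 was listed, Itgam, at most at 0.431 RPKM, and of 4 dendritic cell markers 1 was listed, Flt3, at most at 0.619 RPKM. Of 6 markers of memory CD8 T cells 5 were listed, with a sum of 103 to 121 RPKM in the GFP-hi libraries against 112 to 125 RPKM in the GFP-lo libraries, and none had an adjusted p under 0.05 (limma). Il2rb, the marker with the highest level in this list, lay higher in all GFP-hi libraries (log2 fold change 0.26, limma adjusted p = 0.13), and Ly6c2 lay lower in all of them (-0.82, limma adjusted p = 0.094). Ccl5 (-0.40), Cd44 (-0.06) and Eomes (-0.01) overlapped. The part of these cells in the levels of the ligands was not tested.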

How the data were processed

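RNA of 6 samples, 3 GFP-hi and 3 GFP-lo, had been purified from frozen lysates of sorted cells and made into libraries with the SMART-seq v4 and Nextera XT kits, per the labels' protocols. Per the file headers, the authors deposited RPKM, in 1 column for each sample. The submitters' processing notes name STAR and the mm10 build, with no version, and the counter and annotation were not given in the sources used here. Titles linked columns with samples, and the reporter phenotype gave the groups.

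Genes with a mean of at least 1 RPKM over the 6 samples (9351 genes, 1811 left out) were fitted on log2(RPKM + 1) by lmFit and eBayes with a trend, in limma 3.58.1 under R 4.3.3. Tests were two-sided and adjusted by Benjamini-Hochberg over all genes tested, with a threshold of 0.05. The fit was also run on simulated data with 200 genes changed and libraries drawn independently, and no result here rests on that run. Depth was recovered from 800 listed genes with 1 GENCODE M21 transcript, as the lowest depth at which RPKM times length came closest to whole reads. At that depth, 87.2% to 90.8% of low values were whole reads with a tolerance of 0.1. Chance gives 20% at a depth fixed beforehand, whereas this depth was chosen to fit. The best score for closeness to whole reads was 18.1 to 19.0. With gene lengths exchanged it was 3.58 to 4.53. Reads are given for ligands with 1 transcript and include PCR copies. RPKM is no count, so no count model was used. Figures were drawn with matplotlib 3.10.9.

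The members and lists were chosen with earlier results of these data known. Named genes are the ligands, up to 6 genes of each list with an adjusted p under 0.05, ordered by size of change, and for Cd40lg and Tnfsf8 the 5 genes with the highest r, passing over predicted genes. Other genes with values were chosen after they were seen. Alternatives changed the pseudocount, filter, scaling, variance model and samples.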

Additional observations from a re-analysis of the deposited data

How the results depend on the processing

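The 7 ligands kept their direction in the fits that could include them, except Tnf, whose log2 fold change was 0.01 without GFP-lo library 2. Without library 2 of either group that of Tnf was -0.19. Cd40lg ranged from -1.38 to -0.99 and Tnfsf8 from -1.08 to -0.83 over 17 alternatives, and Tnfsf11 from 1.116 to 2.944 over 15 fits with no filter, which were added after seeing the data. The number of ligands past the threshold was 2. It was 3 with no filter, where Tnfsf11 was called as higher, and 3 with array quality weights, where Ltb was called as lower. It was 1 among the 4 libraries without library 2 of either group, a fit also added after seeing the data, in which Tnfsf8 was lost. Over all genes, 230 were higher and 139 lower of 9351. With no filter 249 were higher and 132 lower of 11162. A filter at a mean of 5 RPKM gave 119 higher and 83 lower, with fewer genes tested. Array quality weights gave 783 and 499, and the 4 libraries gave 52 and 49. Leaving out 1 library gave 71 to 187 higher and 59 to 128 lower genes. The share of higher genes among those called was 62.3%, and 49.6% with trimmed mean of M values scaling (169 higher, 172 lower). The causes of these differences were not tested. No paired analysis was possible because the labels give no replicate numbers and tie no GFP-hi library to a GFP-lo library. Depth limits the GFP-lo level of Tnfsf11, which rested on 5 to 12 reads.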
